A study of Mus musculus with 6 samples.

Results

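Clade B serpins are the intracellular and epithelial branch of the serpin family of protease inhibitors. This account covers 9 of their genes, Serpinb1a, Serpinb2, Serpinb3a, Serpinb5, Serpinb6a, Serpinb8, Serpinb9, Serpinb11 and Serpinb12, among 18193 genes that had a probe set of their symbol alone. Members were selected from the family with the Sox2cKO against control values of these arrays already known, Serpinb9 having been among the genes read lower. The group differences below are therefore a description, and no p-value is given for a member. The 9 genes had 16 probe sets, and 15 of these, representing all 9 genes, passed the filter on dim signal (at least 3 of 6 arrays above the array's 40th percentile). All genes together gave 13222 tested.

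The arrays were Affymetrix Mouse 430 2.0 and held RNA of tumour epithelial cells, sorted as Epcam and alpha6 integrin positive from benign skin papillomas that had been induced with chemicals. The 3 Sox2cKO samples came from K14CREER:SOX2fl/fl mice, in which tamoxifen activates a Cre recombinase under the keratin 14 promoter and deletes Sox2 in keratin 14-expressing cells, and the 3 control (CTRL) samples came from mice called only control. All 6 samples were taken after tamoxifen for 1 week, and the labels give no strain, age or sex. The series text speaks of 3 biological experiments without saying how many animals each array pooled, so spread between arrays is the only error measured. Values are log2 expression values per probe set, differences are Sox2cKO minus control, and a standard error (SE) is that of the limma fit over all genes.

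Sox2 read 7.19, 8.31 and 8.18 in control replicates 1 to 3 and 4.07, 4.63 and 3.23 in Sox2cKO replicates 1 to 3, where unspiked bacterial probe sets read 3.30 to 3.44. The basal keratin gene Krt14 read 13.94 to 14.16 on all arrays. Xist was high on the arrays of control replicates 2 (12.03) and 3 (11.85), and low on that of control replicate 1 (7.30) as on all Sox2cKO arrays (6.08 to 7.54). The Y-linked gene Eif2s3y read the other way, 3.72 and 3.45 in control replicates 2 and 3, 9.67 in control replicate 1 and 9.52 to 9.54 in Sox2cKO. By both genes control replicates 2 and 3 read as female and the other arrays as male. Sex and group are thus largely confounded in every difference over the 6 arrays. Fibroblast markers, 7 of 7 with a higher Sox2cKO mean (median difference 1.30), had a summed level of 10.63 to 11.94 in controls and 11.86 to 13.84 in Sox2cKO, highest in Sox2cKO replicate 3, which also read highest for a ribosomal RNA control (12.49 against 10.96 to 11.77).

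Serpins trap their target protease by offering an exposed reactive loop as bait, and the protease is caught in a covalent complex when it cuts. Most clade B serpins lack a classical secretion signal and guard cells against proteases released inside them or taken up from neighbours. In stratified epithelium several members are made in the layers that differentiate, and some, such as maspin, have lost the inhibitory mechanism. The genes lie in 2 clusters in the mouse RefSeq annotation of GRCm38.p6. On chromosome 1 the order is Serpinb5, Serpinb12, Serpinb13, Serpinb3a, Serpinb3d, Serpinb3b, Serpinb3c, Serpinb11, Serpinb7, Serpinb2, Serpinb10 and Serpinb8, with 0 other protein-coding genes between them. On chromosome 13 a row of 16 genes starts with Serpinb1a, holds Serpinb9 and ends with Serpinb6a. Thus 6 members belong to the first cluster and 3 to the second.

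RefSeq promoter sequences (GRCm38.p6, 250 bases before to 50 after a start site) matched 8 of the 9 members by symbol, with 11 entries. Serpinb1a had no entry. Shown first are the 250 bases before the start site for Serpinb9, the member whose groups did not overlap. They lie at chr13:33004291-33004540 on the plus strand. Then follow Serpinb12 (chr1:106934199-106934448, the first of its 2 entries), Serpinb11 (chr1:107362064-107362313), Serpinb8 (chr1:107589756-107590005) and Serpinb5 (chr1:106860925-106861174), which shared an order of arrays described below. Serpinb2 (chr1:107511173-107511422, the first of its 2 overlapping entries) is the inhibitor of urokinase whose level followed the replicate number. All 6 are on the plus strand and are printed 5′ to 3′, with capitals for matches on either strand. The motifs searched were the SOX core ACAATG, the core shared by SOX and LEF factors ACAAAG, the AP-1 element TGANTCA and the TATA box TATAAA.
Serpinb9: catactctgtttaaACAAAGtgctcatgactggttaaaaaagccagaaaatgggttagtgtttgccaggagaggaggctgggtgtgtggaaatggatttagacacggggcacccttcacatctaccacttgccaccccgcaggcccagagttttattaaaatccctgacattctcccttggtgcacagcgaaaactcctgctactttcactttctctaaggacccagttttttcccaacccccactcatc
Serpinb12: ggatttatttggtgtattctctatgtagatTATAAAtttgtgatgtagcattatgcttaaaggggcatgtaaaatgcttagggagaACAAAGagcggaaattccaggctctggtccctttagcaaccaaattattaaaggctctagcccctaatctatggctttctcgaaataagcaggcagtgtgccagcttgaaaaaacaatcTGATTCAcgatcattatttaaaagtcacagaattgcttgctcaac
Serpinb11: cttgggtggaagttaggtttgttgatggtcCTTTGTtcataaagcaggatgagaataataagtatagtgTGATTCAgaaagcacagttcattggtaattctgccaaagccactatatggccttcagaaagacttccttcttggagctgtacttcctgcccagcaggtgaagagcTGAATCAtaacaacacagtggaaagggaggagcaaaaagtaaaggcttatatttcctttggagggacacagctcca
Serpinb8: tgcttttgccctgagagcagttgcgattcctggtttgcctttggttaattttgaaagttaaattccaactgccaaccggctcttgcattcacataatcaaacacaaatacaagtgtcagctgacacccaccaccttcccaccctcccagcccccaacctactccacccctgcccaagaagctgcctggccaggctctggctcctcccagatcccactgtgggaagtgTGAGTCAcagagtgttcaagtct
Serpinb5: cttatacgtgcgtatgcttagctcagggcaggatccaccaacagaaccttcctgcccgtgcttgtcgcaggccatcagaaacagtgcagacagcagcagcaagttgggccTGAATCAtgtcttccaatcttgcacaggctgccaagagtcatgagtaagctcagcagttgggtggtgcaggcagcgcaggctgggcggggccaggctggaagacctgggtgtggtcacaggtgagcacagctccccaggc
Serpinb2: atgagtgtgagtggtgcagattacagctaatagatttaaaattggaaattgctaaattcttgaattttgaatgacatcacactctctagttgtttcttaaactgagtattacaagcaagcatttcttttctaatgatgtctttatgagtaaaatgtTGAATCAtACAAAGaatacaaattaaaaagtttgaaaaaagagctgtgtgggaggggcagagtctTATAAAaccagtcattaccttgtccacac

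Counting every entry of a gene over the whole window, AP-1 letters were found in 5 of the 8 matched members, Serpinb2, Serpinb5, Serpinb8, Serpinb11 and Serpinb12, and in 8.97% of all 27025 genes with an entry. All 5 lie in the chromosome 1 cluster, where Serpinb3a was the member without a match. In the sequences shown the free base of this loose AP-1 pattern was G in Serpinb8 and A or T in the others. In Serpinb11 there were 2 AP-1 matches, starting 181 and 76 bases before the start site, and in Serpinb8 the match shown starts 23 bases before it. In Serpinb2 the AP-1 match (94 bases before) stands 1 base away from the ACAAAG match (86 bases before). ACAAAG was found in Serpinb2, Serpinb6a, Serpinb9, Serpinb11 and Serpinb12, again 5 of 8, against 21.0% of all genes. In Serpinb9 it was the only match, 236 bases before the start site. ACAATG was in 0 of 8 (14.3% of all genes), and TATAAA in 3 of 8, Serpinb2, Serpinb3a and Serpinb12 (15.7%). These are matches of letters in 1 window and not measured sites.

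Among all 13222 genes, 0 passed an adjusted p of 0.05 between Sox2cKO and control in limma (0%), and 354 (2.68%) had an unadjusted p under 0.05. Accordingly 0 of the 9 members passed. Sox2 itself, the deleted gene, was tested and did not pass either (difference -3.92, SE 0.41). Not passing in these data therefore does not show that a gene was unchanged. Means were lower in Sox2cKO for 5 members and higher for 4, with a median difference of -0.06 against 0.0027 over all genes. Serpinb9 was the member whose 3 Sox2cKO values all lay below its 3 control values, as was the case for 3.12% of all genes, and 0 members had all Sox2cKO values above all controls (2.73% of all genes). Because the members were picked with this contrast in view, nothing is read from these shares. Without control replicate 1, 5 genes passed the adjusted threshold, none of them a member. By their medians, the members varied more from array to array than all genes did. Their median SD within groups was 0.45 against 0.19 over all genes, and their median range over the 6 arrays was 1.12 against 0.50. This did not hold for each member. Serpinb9 had SDs within groups of 0.11 and 0.14, and Serpinb6a had a range of 0.56.

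**Figure D1:**
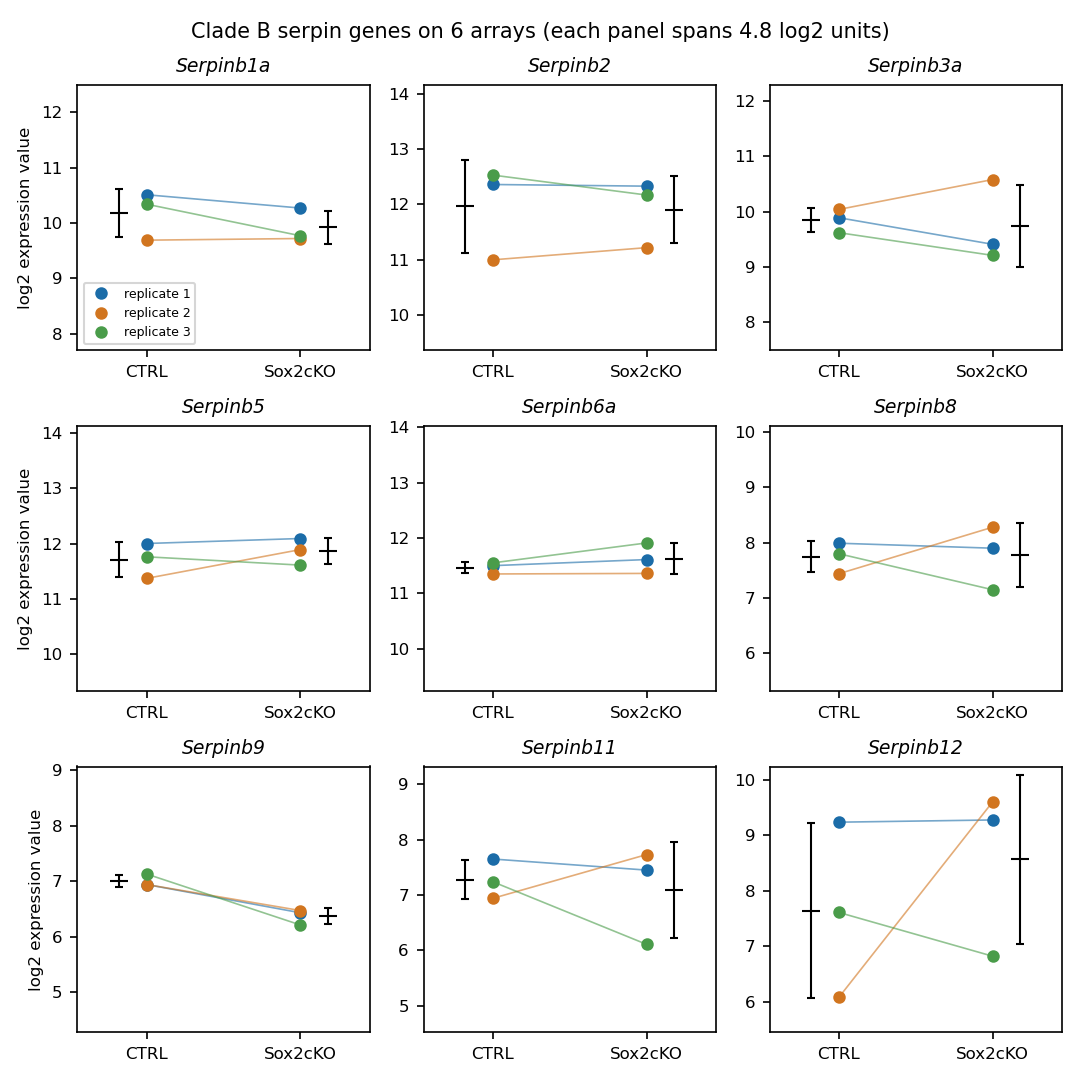
log2 expression value (vertical axis) of the representing probe set of each of the 9 genes in CTRL and Sox2cKO, with a point per array, colours and lines joining arrays of the same replicate number, and black bars for mean ± SD (n = 3 arrays per group). Serpinb9 falls along all 3 lines, as groups without overlap must, while Serpinb12 runs from 6.08 to 9.61 with a wide overlap between the groups.

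Serpinb9, the inhibitor of granzyme B that shields cells from the protease of cytotoxic lymphocytes, read 6.94, 6.94 and 7.13 in control replicates 1 to 3. It read 6.43, 6.47 and 6.21 in Sox2cKO replicates 1 to 3. The lowest control thus lay above the highest Sox2cKO array, and the spread within each group was small (SD 0.11 and 0.14, n = 3 each). The difference was -0.63 (SE 0.13), which is 1.55-fold lower. Arrays of the same number differed by -0.52, -0.47 and -0.91, and against control replicate 1 alone, the low-Xist control, the difference was -0.57. Leaving out 1 array at a time gave -0.68 to -0.55. Groups without overlap fix the direction of all these comparisons in advance. A second probe set of Serpinb9 was under the filter on all 6 arrays and read 4.88, 4.74 and 4.75 in controls and 4.41, 4.54 and 4.37 in Sox2cKO. It differed by -0.35 in the same direction, again without overlap, at a level below the filter.

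Genes of antigen presentation were set beside Serpinb9 as a marker list, and not by likeness of their profiles to it. In the list of Langerhans and class II cell markers 5 of 6 tested genes had a lower Sox2cKO mean (median difference -1.05), 0 passed over all genes, and 3 had groups that did not overlap. These were H2-Ab1 (-1.26, SE 0.29), Cd74, the invariant chain of class II molecules (-1.09, SE 0.34), and the peptide-loading gene H2-DMa (-0.84, SE 0.19). Of the other tested H2-Ab1 probe sets, groups were apart in 1 (-1.32) and overlapped in the other (-0.90). The summed level of the list was 10.40 to 11.15 in controls and 9.19 to 10.32 in Sox2cKO. The Langerhans cell lectin gene Cd207 itself read 5.05 ± 0.21 in controls and 5.07 ± 0.11 in Sox2cKO, just above the filter level of 4.90 to 4.94. The leukocyte list summed to 8.69 to 8.82 and 8.76 to 9.08, with Ptprc (CD45) at 5.00 ± 0.27 and 5.10 ± 0.48. In sorted bulk RNA, fewer cells of a type and less RNA per cell cannot be told apart, and the part of class II expressing cells in the Serpinb9 difference was not tested. Gzmb, the gene of the Serpinb9 target granzyme B, did not pass the filter (4.60 to 4.76 in controls and 4.75 to 5.16 in Sox2cKO).

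Among 2775 genes with an SD of at least 0.3 over the arrays, those with the profile most like Serpinb9 were Sox2 (Pearson r 0.978 over 6 arrays), the homeobox gene Dlx1 (0.963) and the serine protease gene Prss23 (0.958). Serpinb9 was added to this search after its values were seen. Each of these genes was also lower in all Sox2cKO arrays than in all controls, so the likeness repeats the difference between groups, and it is given without a p.

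**Figure D2:**
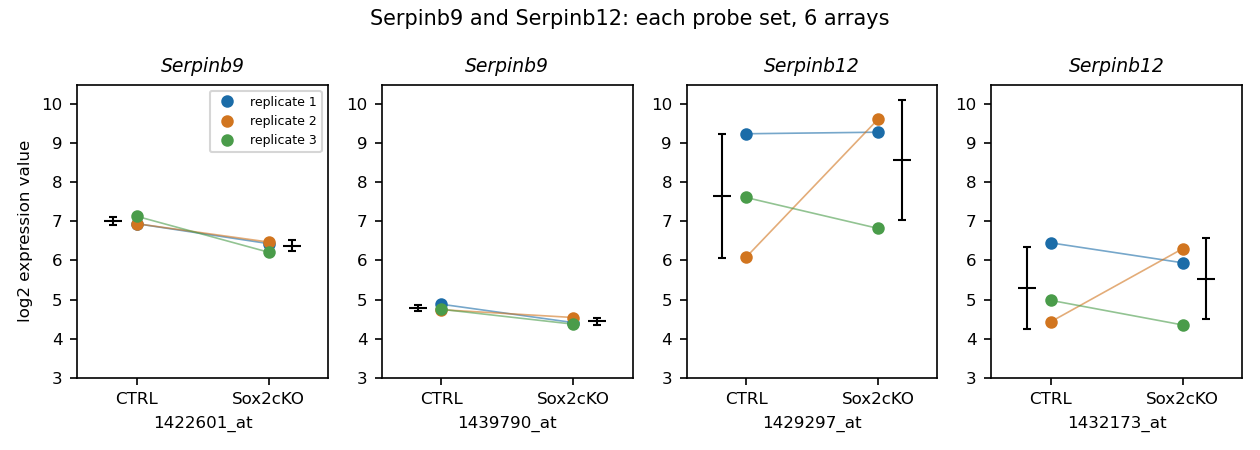
log2 expression value (vertical axis) of both probe sets of Serpinb9 and both of Serpinb12, with a point per array coloured and joined by replicate number and black bars for mean ± SD (n = 3 arrays per group). The groups are apart in both Serpinb9 panels (differences -0.63 and -0.35), and the Serpinb12 probe sets repeat the same wide spread over arrays.

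Serpinb12, an inhibitor of trypsin-like proteases found in surface epithelia, had the widest spread of the members. It read 9.24, 6.08 and 7.61 in controls and 9.28, 9.61 and 6.82 in Sox2cKO, a range of 3.53 or 11.6-fold. Control replicate 1 and Sox2cKO replicates 1 and 2 were high, and the other 3 arrays were low, so the high and the low arrays came from both groups. The difference of 0.93 had an SE of 0.95 (95% interval -1.30 to 3.15), the largest difference of the 9 and the least precise. Leaving out a control array gave 1.73 (replicate 1), 0.14 (replicate 2) or 0.91 (replicate 3). Leaving out a Sox2cKO array gave 0.57 (replicate 1), 0.41 (replicate 2) or 1.80 (replicate 3). Against control replicate 1 alone it was -0.67. The second probe set read 6.45, 4.43 and 4.98 in controls and 5.94, 6.30 and 4.35 in Sox2cKO, with the same 3 arrays high and a difference of 0.25.

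Serpinb11, Serpinb8 and Serpinb5 had the same 3 arrays above the other 3. Serpinb11, a less studied neighbour of Serpinb7 in the cluster, read 7.65, 6.94 and 7.24 in controls and 7.45, 7.73 and 6.11 in Sox2cKO. Its difference was -0.18 (SE 0.42), and it turned to 0.31 without Sox2cKO replicate 3, the array in which it was lowest. Serpinb8, an inhibitor of the proprotein convertase furin, read 7.99, 7.44 and 7.80 in controls and 7.90, 8.28 and 7.15 in Sox2cKO. Its difference was 0.03 (SE 0.29, 95% interval -0.65 to 0.72), turning to -0.22 without Sox2cKO replicate 2, -0.12 without control replicate 2 and -0.03 without Sox2cKO replicate 1. Its second probe set pointed the other way (-0.22, SE 0.43), so the direction for Serpinb8 depends on the probe set. Furin read 9.60 ± 0.19 in controls and 9.66 ± 0.12 in Sox2cKO.

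Serpinb5 encodes maspin, a serpin without known protease inhibition that is studied as a suppressor of tumour cell invasion. It read 12.00, 11.37 and 11.76 in controls and 12.09, 11.89 and 11.61 in Sox2cKO. The groups overlapped, with a difference of 0.15 (SE 0.20, 95% interval -0.32 to 0.63) that became -0.02 without control replicate 2. Its 4 probe sets all gave differences between 0.00 and 0.16, and all were highest in Sox2cKO replicate 1. Some of them, though not the representing one, are of a type open to cross-hybridization.

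The shared order of arrays was set beside that of the keratinocyte lists, as a count chosen after the values were seen. Control replicate 1 and Sox2cKO replicates 1 and 2 were the 3 highest arrays for 4 of the 9 members and for 10.3% of all tested genes. The same held for 9 of 13 suprabasal keratinocyte genes, among them the keratin genes Krt1 and Krt10, the desmosomal cadherin genes Dsc1 and Dsg1a, and Tgm3, Ivl and Spink5. It held for 0 of 11 basal keratinocyte genes and 3 of 13 wound and stress genes. Dsc1 read 9.84, 7.74 and 7.85 in controls and 10.13, 9.93 and 7.47 in Sox2cKO. These 9 suprabasal genes and the 4 members thus had the same 3 arrays highest, which came from both groups. Sbsn, Lor, Casp14 and Calml3 did not have this order. In some genes with the order the gap was small. Tgm3 read 9.24 in Sox2cKO replicate 2 against 9.19 in control replicate 3. Ivl read 8.18 in Sox2cKO replicate 2 against 8.04 in Sox2cKO replicate 3. Serpinb8 read 7.90 in Sox2cKO replicate 1 against 7.80 in control replicate 3. The part of differentiated cells in these levels was not tested. The suprabasal list as a whole had a higher Sox2cKO mean in 13 of 13 tested genes (median 0.39), 0 passed over all genes, and against control replicate 1 alone the median was -0.31. Lor, a cornified envelope gene, was the list member whose groups did not overlap (0.33, SE 0.12), and in its second tested probe set they did overlap. By the likeness search, the profiles nearest to Serpinb12 were those of the proton pump subunit gene Atp6v0a4 (r 0.991 over 6 arrays), the transporter gene Slc10a6 (0.987) and Srpx (0.986).

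**Figure D3:**
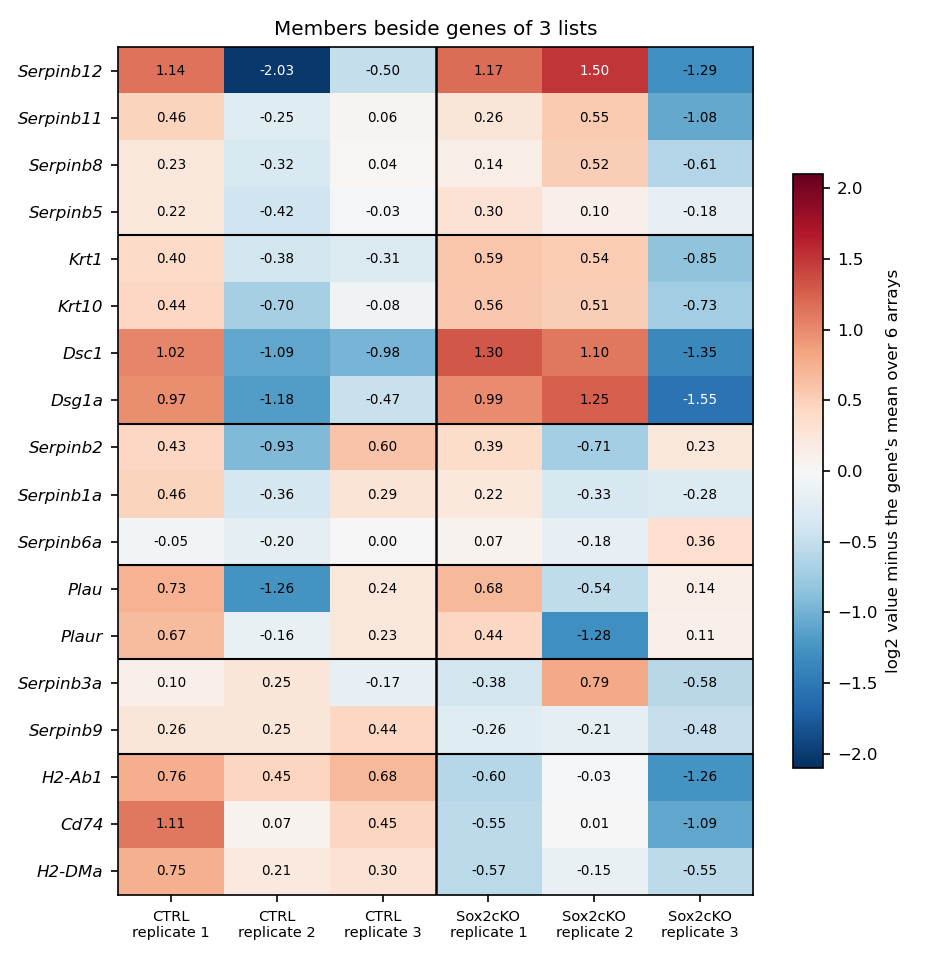
log2 value minus the gene's mean over the 6 arrays (colour and printed number) for members and for genes of the suprabasal, plasminogen activation and class II lists, with arrays in columns and a vertical line between CTRL and Sox2cKO. The top 2 blocks share their 3 highest columns, and the middle blocks are lowest in both columns of replicate 2. In the bottom blocks Serpinb9 and the class II genes are lower on the right. The list genes shown are a part of each list. They were picked for these patterns with values seen, so the likeness within the figure is built in.

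Serpinb2, plasminogen activator inhibitor 2, which blocks urokinase, followed the replicate number rather than the group. It read 12.36, 11.00 and 12.53 in controls and 12.33, 11.22 and 12.17 in Sox2cKO. Both arrays numbered 2 lay below the other 4. The difference between groups was -0.06 with an SE of 0.45, or of 0.15 when the replicate number was a block, and same-numbered arrays differed by -0.04, 0.22 and -0.37. The difference was -0.54 without control replicate 2, and its sign turned without control replicate 1 (0.14), control replicate 3 (0.22) or Sox2cKO replicate 2 (0.28). Serpinb1a, an inhibitor of the neutrophil proteases elastase and cathepsin G, read 10.51, 9.69 and 10.34 in controls and 10.27, 9.72 and 9.77 in Sox2cKO. Its difference was -0.26 (SE 0.25, 0.15 with the block), ranging from -0.51 to -0.10 when control replicate 2 or 1, respectively, was left out, and -0.59 against control replicate 1 alone. Its second probe set, of a type that can share sequence with other transcripts, gave -0.36.

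Serpinb6a, which inhibits cathepsin G and trypsin-like proteases, had the narrowest range of the members over the 6 arrays. It read 11.50, 11.35 and 11.55 in controls and 11.61, 11.36 and 11.91 in Sox2cKO, a range of 0.56. The highest value was in Sox2cKO replicate 3, the array with the highest fibroblast marker level, whose part in it was not tested. The difference was 0.16 (SE 0.16, 95% interval -0.22 to 0.55), and 0.02 without that array. The 2 arrays numbered 2 were the lowest for Serpinb2, Serpinb1a and Serpinb6a, 3 of the 9 members, and for 10.8% of all tested genes.

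Serpinb2 stood beside other genes of plasminogen activation with that order. Of the 7 tested genes of the list, 4 were lowest on the arrays numbered 2, Plau, Plaur, Serpinf2 and Anxa2. In the last 2 the gap was small. Anxa2 read 12.99 and 12.91 there against 13.01 to 13.18 elsewhere, and Serpinf2 5.56 and 5.54 against 5.71 to 5.93. The order was not particular to this list. It also held for 4 of 11 basal keratinocyte genes, 2 of 7 serpins of other clades and 1 of 5 other clade B serpins. It held for 1 of 17 proteases, and for 0 of 13 genes in the suprabasal and in the wound and stress list. Plau, the urokinase gene, read 10.95, 8.96 and 10.46 in controls and 10.89, 9.68 and 10.36 in Sox2cKO. Plaur, its receptor gene, read 10.32, 9.48 and 9.87 in controls and 10.08, 8.36 and 9.75 in Sox2cKO. Enzyme, receptor and inhibitor thus read low together in replicate 2 of either group. Between the groups 4 of the 7 had a higher and 3 a lower Sox2cKO mean (median 0.05), and 0 passed. Plat, the tissue-type activator gene, was higher in every Sox2cKO array (7.11, 6.85 and 6.88 against 7.99, 7.33 and 8.16, a difference of 0.88, SE 0.22), but its second tested probe set gave -0.17. S100a10, a plasminogen-binding partner of annexin A2, was lower (-0.19, SE 0.13), with overlap in its other probe sets.

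Serpinb3a, a relative of the human squamous cell carcinoma antigens that block cysteine and serine proteases, read 9.89, 10.04 and 9.62 in controls and 9.41, 10.58 and 9.21 in Sox2cKO. Sox2cKO arrays lay on either side of the controls, with Sox2cKO replicate 2 the highest of the 6. The difference was -0.12 (SE 0.35). It was -0.54 without Sox2cKO replicate 2, and it turned to 0.05 without Sox2cKO replicate 1 and to 0.15 without Sox2cKO replicate 3. Its only probe set is of a type open to cross-hybridization. The value may therefore include related genes such as its neighbours Serpinb3b, Serpinb3c and Serpinb3d, which was not tested.

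Between arrays of the same replicate number, a pairing taken from their correlation and not stated in the labels, most members were lower in Sox2cKO for some numbers and higher for others. Between arrays numbered 1, 6 of 9 were lower in Sox2cKO (median -0.09, all genes -0.03). Between arrays numbered 2, 1 of 9 was lower (median 0.52, all genes 0.02), and Serpinb9 was that gene. Between arrays numbered 3, 8 of 9 were lower (median -0.57, all genes 0.01), Serpinb6a being the exception. Arrays numbered 2 and those numbered 3 also differed between the groups in the Xist and Eif2s3y pattern. Against control replicate 1 alone 8 of 9 were lower, again except Serpinb6a, a comparison resting on a single control. Control replicate 2 was the lowest array for 5 members and Sox2cKO replicate 3 for the other 4.

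**Figure D4:**
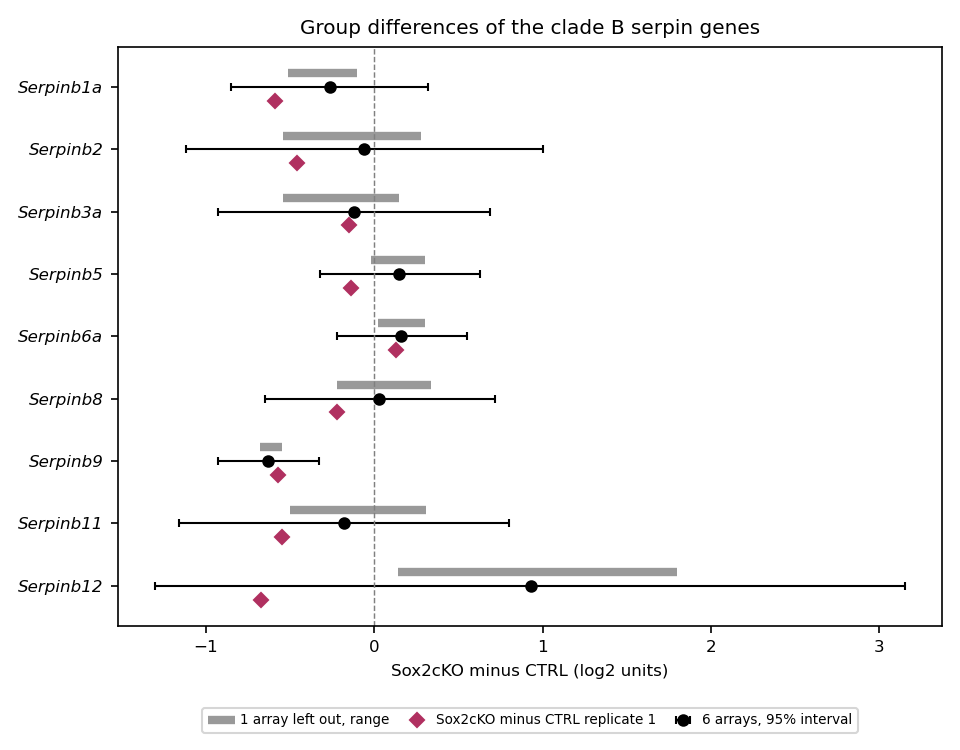
Sox2cKO minus CTRL in log2 units (horizontal axis) for each gene, with black points and bars for the difference over 6 arrays and its 95% interval (limma, not adjusted for the number of genes), grey bars for the range when 1 array is left out, and diamonds for the difference from CTRL replicate 1 alone. All 3 marks of Serpinb9 lie below 0, and the grey bars of 5 genes cross 0. For the grey bar and the diamond of Serpinb9, groups without overlap fix that side in advance. Its interval rests on values known when the members were selected.

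Of 19 other mouse clade B serpin genes listed, 9 had a probe set of their own symbol and 5 passed the filter. Serpinb6c had groups that did not overlap, at 5.28, 4.38 and 5.04 in controls and 5.91, 5.43 and 5.47 in Sox2cKO (0.71, SE 0.25), from a probe set that can share sequence with its neighbours. Serpinb9b, which lies next to Serpinb9 on chromosome 13, read 5.40 ± 0.16 in controls and 5.38 ± 0.16 in Sox2cKO (-0.01, SE 0.14). Serpinb7, which lies between Serpinb11 and Serpinb2, ranged from 3.64 to 6.46. Of the 5, 3 had a higher and 2 a lower Sox2cKO mean (median 0.06), and 0 passed. Among 7 tested serpins of other clades 3 were higher and 4 lower, with a median near 0, 0 passed and 0 had groups apart. Serpina3n (0.53, SE 0.22) and Serpina9 (-0.64, SE 0.34) came closest.

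Proteases that clade B serpins are known to inhibit, with their relatives, were present on the arrays in part. Of 28 listed genes 17 passed the filter, 11 with a higher and 6 with a lower Sox2cKO mean (median 0.08), and 0 passed the test. Of its neutrophil and mast cell protease genes, Elane (neutrophil elastase, 5.53 ± 0.03 in controls and 5.61 ± 0.27 in Sox2cKO) and Tpsb2 (a mast cell tryptase, 5.41 ± 0.05 and 5.35 ± 0.09) passed the filter, and Ctsg, Prtn3, Cma1 and Mcpt4 did not. Apart from Plat, 0 had groups that did not overlap. Ctsk, the cathepsin K gene, read 7.23, 6.86 and 5.85 in controls and 7.13, 7.61 and 9.10 in Sox2cKO, high in the same Sox2cKO replicate 3 as the fibroblast markers. Klk7, a protease of epidermal shedding, was high on the same 3 arrays as Serpinb12.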

How the data were processed

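Expression was measured on 6 Affymetrix Mouse 430 2.0 arrays, 3 control and 3 Sox2cKO, from 100 ng of total RNA each, per the labels' protocols. The deposited table gives 1 log2 value per probe set and array, a scale read from its range. The authors used R 2.14.0, per the submitters' processing notes, and background correction, summarising and normalization are not given in the sources used here. Array medians of 5.42 to 5.46 show a common scale, so a shift shared by most genes would not be seen. Precision is set by 3 arrays a group.

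Gene symbols came from the annotation of the platform (34945 probe sets with 1 symbol, 932 with several, 9160 unnamed), and those with several or none were left out. Symbols were checked against RefSeq through Entrez identifiers, and 0 needed updating. Testing required a signal above the array's 40th percentile on 3 or more arrays. Of several probe sets of a gene, that of highest mean was used. Differences were fitted with limma 3.58.1 in R 4.3.3 over all 13222 genes (no trend, no block), with Benjamini-Hochberg adjustment, and the procedure was tested on simulated data. Figures and counts used Python 3.11.15.

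The members and gene lists were chosen with earlier results of these data known. Named beside the members are list genes whose groups did not overlap, at most 4 a list, or otherwise the 2 of smallest p, and the 3 genes most like the member with the largest difference and the widest range, which was Serpinb12 for both. Plau, Plaur, Serpinf2, Anxa2, Gzmb, Elane, Tpsb2, Furin, Ctsk, Klk7, Cd207, Ptprc, Serpinb7, Serpinb9b, filtered proteases and suprabasal genes other than Lor were named after their values were seen. Krt15 (-0.56), Krt6a (0.13) and Col5a1 (0.86) of the basal, wound and fibroblast lists also had groups that did not overlap. Lists of endothelial, melanocyte and sebocyte markers had medians of 0.03, 0.12 and -0.62, and that of sorted tumour epithelium 0.06.

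The labels number replicates 1 to 3 in both groups. Deviations from group means correlated across genes at 0.288, 0.206 and 0.211 between arrays of the same number, and at -0.333 to 0.064 between others. Deviations from a group mean cancel within the group, so positive values at the same number push the others down, and this contrast is partly forced. Every pair exceeded 0.1, so same-numbered arrays are also compared as pairs, with the block as an alternative. The reported standard errors and intervals are from the fit without pairs unless the block is named. No arrays held identical values.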

Additional observations from a re-analysis of the deposited data

How the results depend on the processing

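In limma, 0 genes passed the adjusted threshold on all 6 arrays and under every alternative except those named here. Leaving out 1 array gave 0 to 5 genes, the 5 without control replicate 1, and a sex covariate gave 1. The count of members past the threshold was 0 in each of these and with the replicate block, where it was again 0 of 9 with 0 genes in all, although 656 genes had an unadjusted p under 0.05 against 354 without it. The pairing changed no call. Of 142 member differences under alternatives, 138 stayed within 1 SD of the reported value. The replicate block and the trend and robust options of limma cannot change a difference, so their values were unmoved in advance. The band is also wide. Within it 5 members, Serpinb2, Serpinb3a, Serpinb5, Serpinb8 and Serpinb11, changed sign when 1 array was left out. Serpinb11, for example, went from -0.18 to 0.31 without Sox2cKO replicate 3. The 4 values that moved were those of Serpinb5 (-0.14) and Serpinb12 (-0.67), each with the sex covariate and on low-Xist arrays alone. Both of these fits set Sox2cKO against control replicate 1. Serpinb8 changed sign with the mean of its probe sets (-0.09) and with its most variable one (-0.22). With the filter at the 60th percentile on all arrays Serpinb11 and Serpinb12 dropped out. With 16 added on the linear scale Serpinb9 differed by -0.55. The second probe set of Serpinb9 was dim, and whether so low a signal misstates a difference was not tested.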

Other observations

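A probe set annotated to 4 genes of the chromosome 13 cluster at once, Serpinb9e, Serpinb9f, Serpinb9g and Serpinb9h, was under the filter on all 6 arrays. It read 4.04, 4.30 and 4.27 in controls and 4.06, 3.98 and 4.68 in Sox2cKO. The bacterial poly-A control transcripts added to the RNA read 6.95, 9.97 and 7.58 in controls and 9.06, 8.15 and 8.91 in Sox2cKO as means of their probe sets. Control replicate 2, the array in which 5 members were lowest, had the highest of these values, and their relation to the members was not tested.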
